A study of Rattus norvegicus with 52 samples.

Results

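On these rat liver arrays, 6 of the 8799 probe sets were taken to read the alpha class of the glutathione S-transferases. A probe set is a group of short probes that report on 1 transcript or on closely related ones. The members were chosen by the accession in their name: k01932_f_at, s72505_f_at, s72506_s_at and s82820mrna_s_at were assigned to Gsta genes, and x62660mrna_at and x62660mrna_g_at to Gsta4. The gene table used here matched 0 of the accessions, so which alpha-class gene each of the first 4 reads is not given in the sources used here. For the same reason, whether other probe sets read the class could not be checked. By the array maker's naming, _f marks probes shared by a gene family, _s probes shared by several transcripts, and _g probes of a group that is also covered by another set.

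Glutathione S-transferases are cytosolic enzymes that join glutathione to electrophilic compounds, which makes them easier to export from the cell. The alpha class is abundant in hepatocytes, also binds bilirubin and other non-substrate ligands, and reduces organic hydroperoxides. Gsta4 is known for its high activity towards hydroxynonenal and related aldehydes that form when membrane lipids are oxidised. Clofibric acid is a fibrate that activates PPARα, the nuclear receptor that raises fatty acid oxidation and peroxisome number in rodent liver.

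The study compared entire liver sections with microdissected ones, and with sections that had gone through some of the steps of laser capture microdissection (LCM), in F344 rats given clofibric acid (CA) at 0.29% or 0.54% and in untreated rats (0%, controls). Microdissected sections gave 1 array at 0.54%, 1 at 0.29% and 2 of controls. LCM-reference-time and dehydrated sections gave 1 array at each of the 3 doses. Stained sections gave 5 arrays at 0.54%, 7 at 0.29% and 8 of controls. Entire sections gave 6 arrays at 0.54%, 8 at 0.29% and 8 of controls. How CA was given, for how long, and at what age the rats were treated is not given in the sources used here. Whether replicate arrays came from separate animals is not said in the labels, so p-values measure the spread between arrays, which may be technical. Each array reads RNA pooled from many cells, so fewer cells of a type and less RNA per cell cannot be told apart. Microdissected sections hold captured tissue, whose cell make-up may differ from that of entire sections. Which cells were captured is not said in the labels. Liver cell markers could not be checked, since the files pair no probe set with a gene name.

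RefSeq (GRCr8) lists 8 alpha-class genes in the rat, of which 3 lie on chromosome 8, 4 on chromosome 9 and the remaining Gsta4l1 on chromosome 10. The promoters of Gsta4, of Gsta1 and of Gsta3 are shown because they cover both gene clusters and hold or lack an antioxidant response element core, the short motif bound by the stress factor NRF2. Each runs 5′ to 3′ from 250 bases before to 50 bases after a start site in that table. Capitals mark every match, on either strand, to TGACNNNGC (the core of the element), AGGTCA (the hexamer that nuclear receptors such as PPARα bind) or TATAAA (the TATA box).
Gsta4, chr8:87947015-87947314, plus strand: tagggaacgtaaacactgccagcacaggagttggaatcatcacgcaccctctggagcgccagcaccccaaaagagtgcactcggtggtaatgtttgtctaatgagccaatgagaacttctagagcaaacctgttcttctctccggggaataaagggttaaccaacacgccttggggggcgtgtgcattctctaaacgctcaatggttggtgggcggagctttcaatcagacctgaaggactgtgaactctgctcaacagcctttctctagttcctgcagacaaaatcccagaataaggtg
Gsta1, chr9:31216483-31216782, minus strand: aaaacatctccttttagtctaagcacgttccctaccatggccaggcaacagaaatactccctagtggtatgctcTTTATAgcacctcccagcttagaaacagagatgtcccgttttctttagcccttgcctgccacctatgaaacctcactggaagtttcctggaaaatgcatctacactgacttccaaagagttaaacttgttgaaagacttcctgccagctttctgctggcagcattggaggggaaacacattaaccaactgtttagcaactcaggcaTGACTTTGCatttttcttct
Gsta3, chr9:31154739-31155038, plus strand: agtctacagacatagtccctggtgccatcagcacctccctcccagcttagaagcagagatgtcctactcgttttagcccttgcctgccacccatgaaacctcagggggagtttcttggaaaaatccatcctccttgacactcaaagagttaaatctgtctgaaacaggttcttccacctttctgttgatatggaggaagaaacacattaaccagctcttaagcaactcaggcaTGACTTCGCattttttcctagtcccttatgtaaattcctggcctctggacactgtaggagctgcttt
The Gsta4 window held none of the 3 motifs. The Gsta1 window held the core as TGACTTTGC and a TATA box on the opposite strand, and the Gsta3 window held the core as TGACTTCGC. These Gsta1 and Gsta3 windows had 203 identical bases of 248 aligned ones (81.9%), while Gsta1 and Gsta4 had 150 of 243 (61.7%). Apart from Gsta4 with Gsta5 (75.1%), the other pairs of alpha-class windows ran from 54.4% to 67.9%. The 61.7% is thus within the usual range of this alignment and is not read as likeness. Of the 9 alpha-class windows, 3 held TGACNNNGC (Gsta1, Gsta2 and 1 of the Gsta3 windows), against 12.1% of all 33469 promoters in the table. AGGTCA was in 2 of the 9 (Gsta2 and Gsta6), against 16.2%, and in Gsta2 it overlapped the core. TATAAA was in 2 (Gsta1 and Gsta6), against 14.2%. A match is a description of these letters and not evidence of a bound site.

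Values below are either the deposited intensity, which is linear, or log2 of it after a floor of 4 and quantile normalization over the 52 arrays. Between 20.6% and 30.1% of an array's deposited intensities were below 0. Mean intensity per array ranged from 137 to 197 in stained sections and from 163 to 203 in entire sections. The GAPDH control ratio (3′ over 5′ probe set), which rises when RNA is short or broken, had a median of 8.45 in stained sections and 1.54 in entire sections. In 6 arrays a quality control stood apart from its preparation. The GAPDH ratio was above 4 in 3 entire arrays, namely 0.54% replicate 5, 0.29% replicate 7 and control replicate 7, and the 5S rRNA control was above 200 in 3 stained arrays, namely 0.54% replicate 5, 0.29% replicate 7 and control replicate 8.

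**Figure D1:**
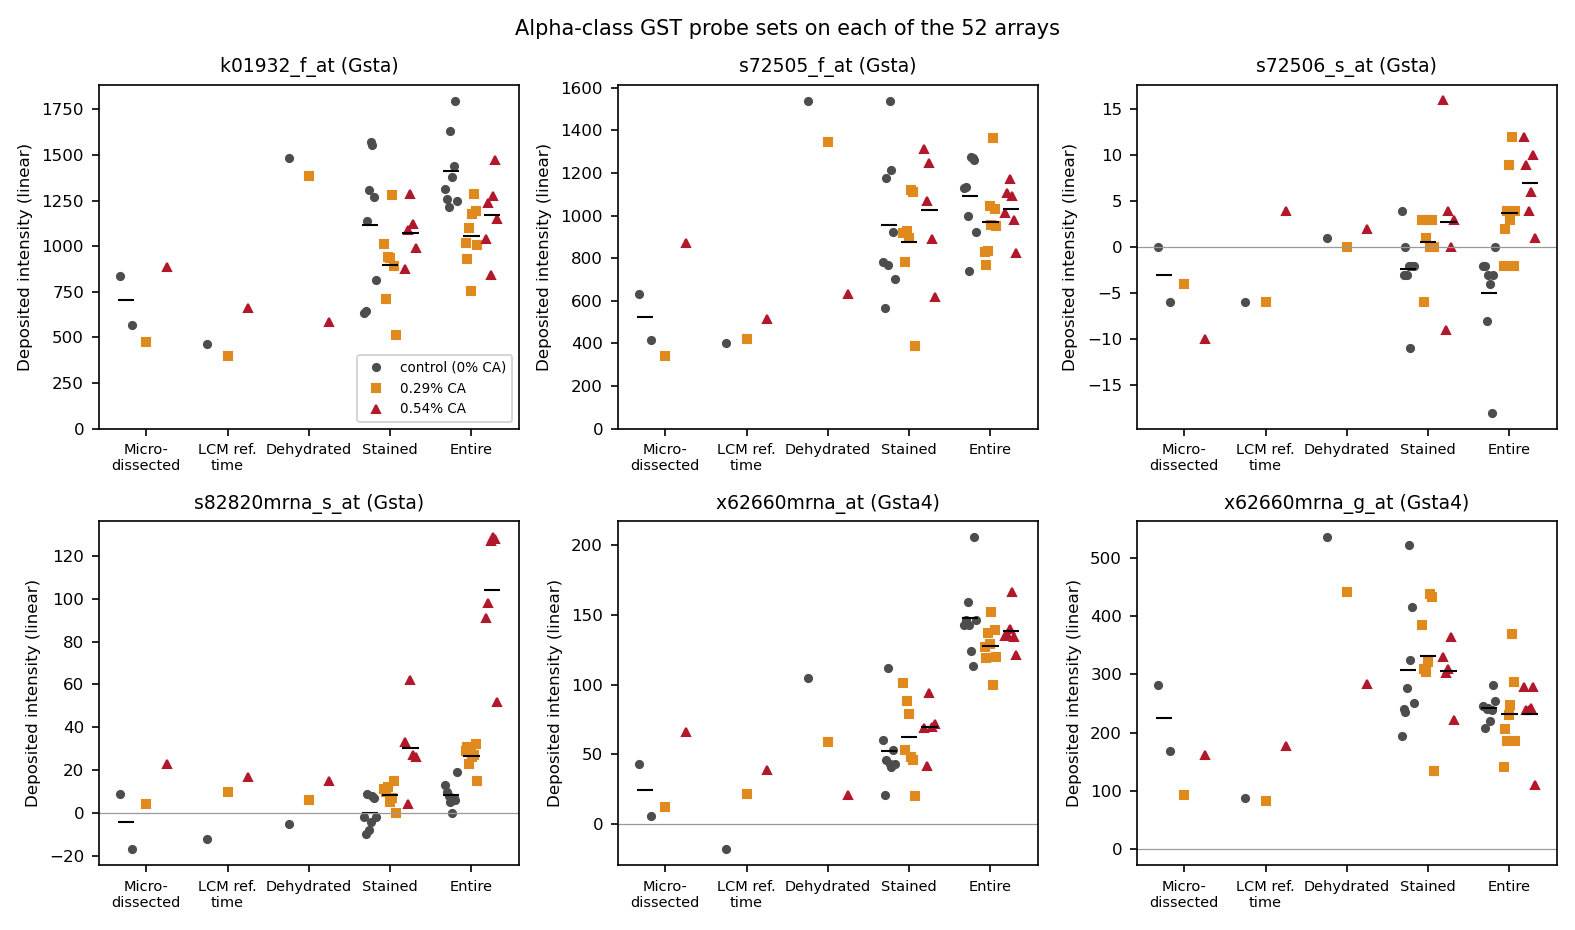
Deposited linear intensity (y axis, scale differs by panel) of the 6 alpha-class probe sets on each of the 52 arrays, by preparation (x axis) and CA dose (colour and shape). Points are arrays and short bars are means of groups with over 1 array. s82820mrna_s_at reaches 129 in entire sections at 0.54% CA, against at most 19 in entire controls, and x62660mrna_at is lower in stained than in entire sections.

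The largest response to CA among the 6 was that of s82820mrna_s_at, a Gsta probe set. In entire sections it stepped up with dose, from a low starting point. The 8 entire controls ran from 0 to 19 with a median of 7.5, and 7 of them were above the floor of 4. At 0.29% CA the 8 arrays ran from 15 to 32 with a median of 28. At 0.54% CA the 6 arrays ran from 52 to 129 with a median of 112.5. At 0.29% 7 of 8 arrays were above every control, and all 6 arrays at 0.54% were above every control and every array at 0.29%. The mean intensity was 8.5 ± 5.68 in controls (SD, n = 8), 26.5 ± 5.45 at 0.29% (n = 8) and 104 ± 30.5 at 0.54% (n = 6).

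On the normalized scale s82820mrna_s_at was 3.22-fold higher at 0.29% CA than in controls (95% CI 2.26 to 4.60, limma adjusted p = 4.42e-05). At 0.54% it was 11.9-fold higher than in controls (95% CI 8.13 to 17.5, limma adjusted p = 1.53e-09). The step between the doses was 3.70-fold in 0.54% over 0.29% arrays (95% CI 2.52 to 5.44, limma adjusted p = 0.000404). The dose step passed the test in 0.935% of all probe sets, and s82820mrna_s_at was the 1 member of 6 that passed it. Arrays at 0.54% that all lay above all arrays at 0.29% were found in 0.295% of all probe sets. With a floor of 20, under which all 8 controls are set to the same value, the log2 fold at 0.29% was 0.25 (limma adjusted p = 0.301) in place of 1.69, and that at 0.54% was 1.98 in place of 3.58.

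In stained sections the same probe set followed the same dose order at lower values. The 8 stained controls ran from -10 to 9 with a median of -2, and 3 of 8 were above the floor. At 0.29% CA the 7 arrays ran from 0 to 15 with a median of 10, and at 0.54% the 5 arrays had 33, 4, 62, 27 and 26. Of the arrays at 0.29%, 4 of 7 were above every control, and of those at 0.54%, 4 of 5 were, while the remaining array lay within the controls. At 0.54% it was 4.01-fold higher than in controls (95% CI 1.88 to 8.58, limma adjusted p = 0.0242), a fold that depends on the floor because most controls lie at it. At 0.29% the log2 fold was 0.62 ± 0.48 (SE, limma adjusted p = 0.687), and 0.54% over 0.29% gave 1.39 ± 0.54 (SE, limma adjusted p = 0.95, unadjusted p = 0.0183), a step that 0.0632% of all probe sets passed.

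The call at 0.54% in stained sections was lost when 0.54% replicate 1, 3, 4 or 5 was left out, with log2 folds of 1.89, 1.66, 1.90 and 1.94 and limma adjusted p of 0.0726, 0.0927, 0.0598 and 0.0651. The median GAPDH ratio moved with dose in these sections, at 10.2 in controls, 7.32 at 0.29% and 4.47 at 0.54%. With that ratio as a covariate the log2 fold at 0.54% was 1.69 (limma adjusted p = 0.131), and without the arrays whose quality controls stood apart it was 1.87 (limma adjusted p = 0.0811).

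The effect of CA on s82820mrna_s_at was smaller in stained than in entire sections by a log2 difference of -1.57 at 0.54% (95% CI -2.76 to -0.39), but this difference did not pass the test (limma adjusted p = 0.406, unadjusted p = 0.0106). At 0.29% the difference was -1.07 (95% CI -2.16 to 0.01, limma adjusted p = 1). Over all probe sets 0.134% passed the test of the difference at 0.54% and 0.0855% at 0.29%. For k01932_f_at, the family probe set, the difference at either dose was 0.05, with 95% intervals of -0.44 to 0.53 at 0.54% and -0.40 to 0.50 at 0.29%.

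Each preparation with few arrays also had its highest s82820mrna_s_at intensity at 0.54%. Dehydrated sections had -5 in the control, 6 at 0.29% and 15 at 0.54%. LCM-reference-time sections had -12 in the control, 10 at 0.29% and 17 at 0.54%. Microdissected sections had 9 and -17 in the controls, 4 at 0.29% and 23 at 0.54%. The values at 0.29% in microdissected sections lay between its controls, so only the position of the 0.54% array was shared by all 3 preparations. Among the 6 groups with replicates, the mean log2 value fell in the order entire 0.54% (6.30 ± 0.52), stained 0.54% (4.50 ± 1.46), entire 0.29% (4.41 ± 0.36), stained 0.29% (3.11 ± 0.82), entire control (2.72 ± 0.61) and stained control (2.50 ± 0.69). The gaps after the first and after the third of these exceeded the larger SD of the pair, and the other neighbours did not differ beyond their spread.

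**Figure D2:**
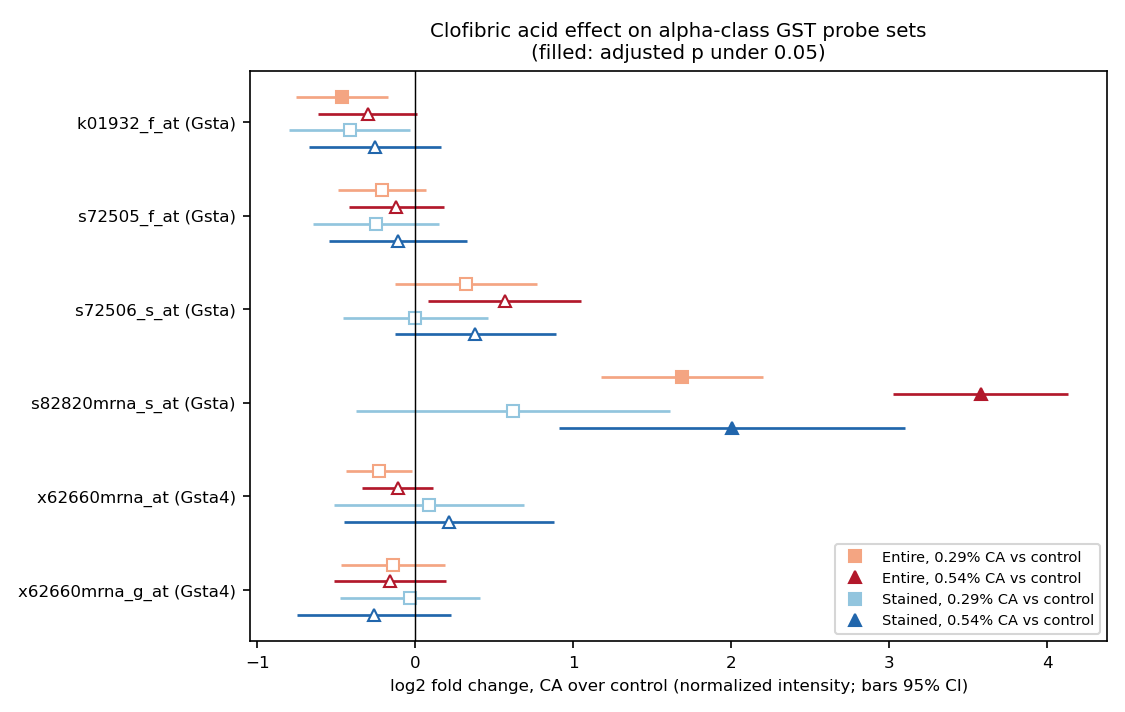
Log2 fold change of CA over control (x axis, normalized intensity) for the 6 probe sets (y axis) in entire and stained sections at 0.29% and 0.54%, with 95% confidence intervals. Filled symbols have a limma adjusted p under 0.05. s82820mrna_s_at is filled at both doses in entire sections and at 0.54% in stained sections, and k01932_f_at is filled below 0 at 0.29% in entire sections. The folds of s72506_s_at are set by the floor, at which all its entire and stained controls lie.

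The pair of family probe sets read strong signals that moved little or downwards with CA. k01932_f_at ran from 753 to 1287 with a median of 1059.5 in the 8 entire arrays at 0.29%, against 1214 to 1797 with a median of 1345.5 in the 8 entire controls. Of the arrays at 0.29%, 7 of 8 were below every control. The normalized level was 1.38-fold lower at 0.29% than in controls (log2 -0.47 ± 0.14 SE, limma adjusted p = 0.0331). In this comparison 11.1% of all probe sets passed the test, 5.51% higher and 5.63% lower, and of the 6 members 1 was higher and 1 was lower. The median log2 fold was -0.18 over the 6 members and -0.0072 over all probe sets tested.

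At 0.54% the 6 entire arrays had k01932_f_at intensities of 1038, 1238, 844, 1273, 1474 and 1150, which overlapped the controls. The log2 fold over controls was -0.30 ± 0.15 (SE, limma adjusted p = 0.202), so the lower level at 0.29% was not followed by a larger fall at the higher dose. At 0.54% 15.8% of all probe sets passed the test and 1 of the 6 members did, with a median log2 fold of -0.12 over the members and -0.0075 over all probe sets tested. In stained sections the log2 folds of k01932_f_at were -0.42 at 0.29% (95% CI -0.80 to -0.03, limma adjusted p = 0.328) and -0.26 at 0.54% (95% CI -0.68 to 0.16, limma adjusted p = 0.555).

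The call of k01932_f_at at 0.29% lay close to the threshold. It was lost without 0.29% replicate 1, 2, 4 or 8, or without control replicate 4, 6 or 7, with log2 folds from -0.52 to -0.39 and limma adjusted p from 0.018 to 0.0718 over all 16 such fits. Control replicate 7 had both the highest intensity, 1797, and a GAPDH ratio of 6.25. On the deposited scale, centred on each array's median and with no quantile step, the log2 fold was -0.42 (limma adjusted p = 0.192).

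s72505_f_at, the other family probe set, passed the test in none of the comparisons. In entire sections it averaged 1092 ± 193 in controls (n = 8), 972 ± 187 at 0.29% (n = 8) and 1031 ± 123 at 0.54% (n = 6, SD throughout), with overlapping groups. Its log2 folds over entire controls were -0.21 at 0.29% (95% CI -0.49 to 0.07) and -0.12 at 0.54% (95% CI -0.42 to 0.18). Its ratio to k01932_f_at within an array differed between doses or between stained and entire sections in none of 7 exact permutation tests (two-sided, lowest p = 0.136, lowest adjusted p = 0.476 over 14 tests). Across the 52 arrays the log2 values of this pair had r = 0.521, and across the 22 entire arrays r = 0.308. These values describe arrays that share groups and preparations, and the pair may share probes or transcripts. None of the neighbouring group means of k01932_f_at or s72505_f_at, ordered by level over the 6 replicated groups, differed beyond their spread.

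s72506_s_at was near or below the floor throughout. It was above 4 on 7 of 52 arrays and below 0 on 22, and its intensity ran from -18 to 16. In entire sections the 6 arrays at 0.54% ran from 1 to 12, and all 6 were above all 8 controls, which ran from -18 to 0. A non-overlap in that direction was found in 2.79% of all probe sets in this comparison. No fold is read from this, since all 8 controls were at the floor and the probe set was tested only through its CA-treated arrays, and the normalized values did not pass the test (limma adjusted p = 0.11). At 0.29% the 8 entire arrays ran from -2 to 12 (limma adjusted p = 0.44).

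The Gsta4 probe sets did not respond to CA beyond the test's threshold in entire or stained sections, and differed by preparation in opposite directions. In entire sections x62660mrna_at averaged 148 ± 27.6 in controls (n = 8), 128 ± 15.6 at 0.29% (n = 8) and 139 ± 14.9 at 0.54% (n = 6, SD throughout). Its log2 folds over entire controls were -0.23 at 0.29% (95% CI -0.44 to -0.02, limma adjusted p = 0.171) and -0.11 at 0.54% (95% CI -0.34 to 0.11, limma adjusted p = 0.559). x62660mrna_g_at averaged 242 ± 21.9 in controls, 232 ± 70.8 at 0.29% and 231.5 ± 62.1 at 0.54%, with log2 folds of -0.14 (95% CI -0.47 to 0.19) and -0.16 (95% CI -0.52 to 0.20). In stained sections the 4 log2 folds of both sets lay between -0.27 and 0.21. With limma, 0 of the 6 members passed the test in stained sections at 0.29%, where 3.65% of all probe sets did and 1 member, k01932_f_at, had an unadjusted p under 0.05. At 0.54% 1 member of 6 passed it, s82820mrna_s_at, against 6.27% of all probe sets.

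Between stained and entire controls, x62660mrna_at was 2.22-fold lower in stained sections. It ran from 21 to 112 with a median of 44.5 in the 8 stained controls, against 113 to 206 with a median of 144.5 in the 8 entire controls, and the groups did not overlap. The log2 fold was -1.15 ± 0.21 (SE, limma adjusted p = 3.96e-05). x62660mrna_g_at ran from 194 to 522 with a median of 264 in stained controls, against 208 to 281 with a median of 242 in entire controls, with overlap, and its normalized level was 1.70-fold higher in stained sections (95% CI 1.32 to 2.19, limma adjusted p = 0.00102). In this comparison 30.1% of all probe sets passed the test, 16.3% higher and 13.7% lower, and a non-overlap below the entire controls was found in 6.71%. On the deposited scale centred on array medians, the median probe set was 0.42 higher in stained sections on the log2 scale, and the log2 folds were 0.81 for x62660mrna_g_at and -1.08 for x62660mrna_at. On that scale 2817 probe sets were called higher and 981 lower in stained controls, while after quantile normalization 1336 were higher and 1126 lower.

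The ratio of x62660mrna_g_at to x62660mrna_at within an array was taken on deposited intensities raised to the floor, and needs no scaling between arrays. Its mean log2 value was 2.62 ± 0.82 in stained controls and 0.73 ± 0.20 in entire controls (SD, n = 8 each, exact permutation test, two-sided p = 0.000155, the smallest this design allows, adjusted p = 0.00217). At 0.29% it was 2.49 ± 0.60 in stained (n = 7) and 0.81 ± 0.51 in entire sections (n = 8, exact permutation p = 0.000466, adjusted p = 0.00326). At 0.54% it was 2.16 ± 0.50 in stained (n = 5) and 0.68 ± 0.44 in entire sections (n = 6, exact permutation p = 0.00216, the smallest this design allows, adjusted p = 0.0101). Unequal change of the pair was thus present at all 3 doses, while CA against control gave exact permutation p from 0.282 to 0.842 for this ratio. The ratio does not say which of the sets changed.

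In linear terms the ratio ran from 2.45 to 28.2 over the 4 microdissected arrays, from 3.77 to 22 over the 3 LCM-reference-time arrays, from 5.10 to 13.5 over the 3 dehydrated arrays, from 2.47 to 12.1 over the 20 stained arrays and from 0.917 to 3.69 over the 22 entire arrays. The 22 is set by the floor, since x62660mrna_at was -18 on that LCM-reference-time control array. The 28.2 rests on an x62660mrna_at intensity of 6, near the floor, in microdissected control replicate 2. The GAPDH ratio was likewise lowest in entire sections: its medians were 7.71, 4.70, 11.8, 8.45 and 1.54 in the same preparations. The 3 entire arrays with a GAPDH ratio of 5.07 to 6.49 had Gsta4 ratios of 1.36 to 2.08, within the range of the other 19 entire arrays. Within the 20 stained arrays the log2 ratios had r = 0.523 (permutation p = 0.0184, adjusted over 2 relations 0.0368) and Spearman's rho = 0.49 (permutation p = 0.0291, adjusted 0.0582). Without the 2 arrays farthest from the median GAPDH ratio, r was 0.389 (permutation p = 0.11), so the relation rests in part on those arrays. The permutations ignored dose, with which both measures fell in stained sections. From controls to 0.29% and 0.54%, the median GAPDH ratio was 10.2, 7.32 and 4.47, and the mean log2 Gsta4 ratio 2.62, 2.49 and 2.16. Dose and the GAPDH ratio thus cannot be told apart in this relation. Within the 22 entire arrays r was 0.215 (permutation p = 0.322) and rho 0.258 (permutation p = 0.249), and r was 0.325 without the 2 farthest (permutation p = 0.155).

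With the GAPDH ratio as a covariate the log2 folds between stained and entire controls were -0.84 for x62660mrna_at (limma adjusted p = 0.104) and 0.35 for x62660mrna_g_at (limma adjusted p = 0.544), and neither passed the test. Without the arrays whose quality controls stood apart they were -1.08 (limma adjusted p = 0.000223) and 0.76 (limma adjusted p = 0.00283). The GAPDH ratio ran from 4.66 to 18.9 in stained and from 1.25 to 6.25 in entire controls, so it nearly separated them. Over all probe sets, calls fell from 2462 to 398 with this covariate. The covariate fit therefore cannot tell RNA quality from preparation. The same limit applies to the other preparations, whose median GAPDH ratios were also above that of entire sections.

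**Figure D3:**
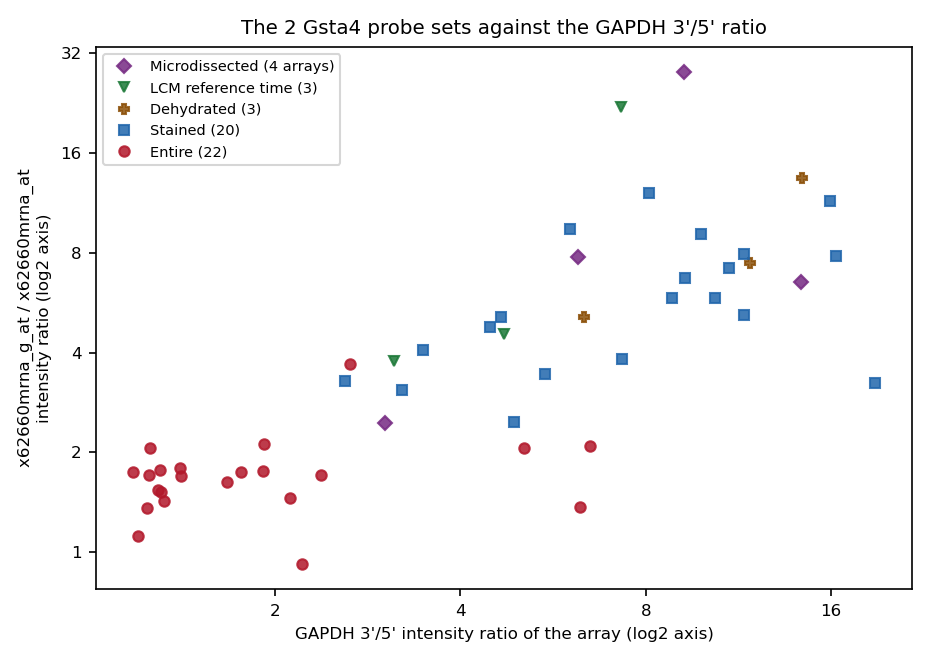
Ratio of the Gsta4 probe sets within each array (y axis, x62660mrna_g_at over x62660mrna_at, deposited linear intensities raised to at least 4, log2 axis) against the GAPDH 3′ over 5′ ratio of that array (x axis, log2 axis), with 1 point per array and preparation by colour and shape. The 20 stained arrays lie at ratios of 2.47 to 12.1 and the 22 entire arrays at 0.917 to 3.69.

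In the other preparations, compared with entire sections over the average of the 3 doses, the same pair of probe sets and s82820mrna_s_at carried the calls. The arrays without replicates are taken here to vary like the replicated groups. In microdissected sections 2 of 6 members were lower and 0 higher, against 30.0% of all probe sets passing the test, 13.9% lower and 16.1% higher. x62660mrna_at had intensities of 43 and 6 in microdissected controls, 12 at 0.29% and 66 at 0.54%, and was 3.51-fold lower than in entire sections (log2 -1.81 ± 0.29 SE, limma adjusted p = 5.73e-06). s82820mrna_s_at had a log2 fold of -1.43 ± 0.43 (SE, limma adjusted p = 0.00991), which was -1.19 (limma adjusted p = 0.0522) without microdissected control replicate 2. This fold depends on the floor, at which 2 of the 4 microdissected arrays lie. It was -0.67 with a floor of 20 (limma adjusted p = 0.000843), which only the 0.54% microdissected array exceeds, at 23. The call was also lost with the GAPDH ratio as a covariate (-1.26, limma adjusted p = 0.0741) and with quantile normalization before the floor (-1.05, limma adjusted p = 0.0589). In controls the mean log2 level of s82820mrna_s_at was 2.72 in both microdissected (n = 2) and entire sections (n = 8). In microdissected against entire sections it was 2 against 4.41 at 0.29% and 4.42 against 6.30 at 0.54%. The averaged fold thus came from 1 microdissected array at each CA dose.

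In dehydrated sections 2 of 6 members were lower and 1 was higher, against 20.8% of all probe sets passing the test, 8.69% lower and 12.1% higher. x62660mrna_at had intensities of 105 in the control, 59 at 0.29% and 21 at 0.54%, with a log2 fold over entire sections of -1.05 ± 0.31 (SE, limma adjusted p = 0.0127). x62660mrna_g_at had 536, 441 and 283 at the same doses with a log2 fold of 1.02 ± 0.22 (SE, limma adjusted p = 0.000602). s82820mrna_s_at was lower with -1.45 ± 0.47 (SE, limma adjusted p = 0.0224). The s82820mrna_s_at fold depends on the floor, since the control array lies at it. With a floor of 20 every dehydrated array is set to the same value. The fold was then -0.74 (limma adjusted p = 0.000989), but it reflects only the spread of the entire arrays above that floor. With the GAPDH ratio as a covariate none of the 3 passed the test, with log2 folds of -0.85 for x62660mrna_at (limma adjusted p = 0.326), 0.63 for x62660mrna_g_at (limma adjusted p = 0.233) and -1.19 for s82820mrna_s_at (limma adjusted p = 0.378). That ratio ran from 6.36 to 14.3 in dehydrated and from 1.18 to 6.49 in entire sections. It thus nearly separated them, and this fit cannot tell RNA quality from preparation.

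In LCM-reference-time sections 2 of 6 members were lower, against 31.4% of all probe sets passing the test, 14.4% lower and 17.0% higher. x62660mrna_at had intensities of -18 in the control, 22 at 0.29% and 39 at 0.54%, with a log2 fold of -2.65 ± 0.31 (SE, limma adjusted p = 1.65e-08) that depends on the floor for the control array. s82820mrna_s_at had -1.18 ± 0.47 (SE, limma adjusted p = 0.0488), and this call was lost in 16 of the 22 fits that left out 1 entire array, with limma adjusted p from 0.0374 to 0.0603 over the 22. This fold depends on the floor, since the control array lies at it. With a floor of 20 every array of this preparation is set to the same value. The fold was then -0.74 (limma adjusted p = 6e-04), but it reflects only the spread of the entire arrays above that floor. Fitting the GAPDH ratio alongside gave -1.05 (limma adjusted p = 0.132). The family sets k01932_f_at and s72505_f_at had deposited intensities of 400 to 663 and 404 to 513 there. Their log2 folds on the scale centred on array medians were -0.81 (limma adjusted p = 0.0131) and -0.75 (limma adjusted p = 0.0279), while after quantile normalization neither passed the test.

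Between CA-treated and control microdissected sections, limma called 0 of 6 members, against 12.8% of all probe sets, and 1 member had an unadjusted p under 0.05. That member was x62660mrna_g_at, with intensities of 93 at 0.29% and 162 at 0.54% CA, against 281 and 169 in the controls (log2 -0.89 ± 0.35 SE, limma adjusted p = 0.0888). Fitted on the microdissected and entire arrays only, without the other preparations, it passed the test (limma adjusted p = 0.0403). x62660mrna_at depended on 1 control: its log2 fold was 2.14 (limma adjusted p = 0.0021) without control replicate 1, at 43, and -0.53 (limma adjusted p = 0.641) without control replicate 2, at 6.

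The probe sets whose group means most resembled those of k01932_f_at, the member with the highest mean level, were x12355_s_at (r = 0.873) and d49363_s_at (r = 0.872) over the 15 group means, out of 2393 probe sets above the floor on every array. The files pair neither with a gene. The next 3 had r from 0.844 to 0.869. The group means share arrays, preparations and doses, and these values are given as a description. The log2 values of the Gsta4 pair had r = -0.339 over the 52 arrays, -0.264 within stained and -0.0483 within entire sections.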

How the data were processed

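RNA of 52 rat liver section samples was profiled on 1 array each, in 15 groups of dose and preparation. The deposited values are linear intensities, 1 per probe set and array. How the authors scaled or background-corrected them, and with which software, is not given in the sources used here. These values extend below 0, and no detection call was used here. The 59 control probe sets were left out, which left 8740.

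Intensities were raised to a floor of 4 (the 10th percentile of positive values), put on the log2 scale from the deposited intensities and quantile normalized over the 52 arrays. limma 3.58.1 in R 4.3.3 (lmFit, eBayes) was fitted over all non-control probe sets that exceeded the floor on any fitted array. It was also run on simulated data, in which changes were added only to probe sets well above the floor in entire controls. That check did not cover sets near the floor, such as s82820mrna_s_at and s72506_s_at. Probe sets with a Benjamini-Hochberg adjusted p under 0.05 were called. CA against control was fitted within entire or stained sections, stained against entire sections on all 42 of those arrays, and the other preparations on all groups. Ratios within an array were tested by exact two-sided permutation over arrays. Correlations used 100000 resamples. Confidence intervals are at 95%, and the number of arrays limits the precision.

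All 6 members are described. By the rule for probe sets of like pattern, 5 were found for the member with the highest mean level, of which the 2 closest are given by ID. The gene table matched 0 probe-set accessions, so the 95 genes of the pathway and cell-marker lists could not be counted. Members and lists were chosen with earlier results of these data known. Promoters come from RefSeq (GRCr8). The replicate numbers were checked for pairing by the correlation of same-numbered arrays' deviations from their group means. In no comparison was every pair's correlation over 0.1, so no block was used in the main fits. Some same-numbered arrays did vary together. Against controls of the same preparation, stained arrays at 0.29% had 6 of 7 pairs over 0.1 (-0.264 to 0.608). Entire arrays at 0.29% had 5 of 8 (-0.055 to 0.543). At 0.54% it was 1 of 5 in stained (-0.243 to 0.386) and 1 of 6 in entire sections (-0.209 to 0.177). Stained against entire controls had 4 of 8 (-0.148 to 0.413). Alternatives covered scaling, floor, filter, samples fitted, array weights, a GAPDH covariate and left-out arrays.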

Additional observations from a re-analysis of the deposited data

Results flagged for a closer look

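Of 26 probe-set and group pairs with 4 to 10 arrays that were checked for a single array far from the others, 3 stood out, where chance gives about 1 in 20. Groups with any array at or below the floor were not checked. This left out s72506_s_at in every group, and s82820mrna_s_at in all but the CA-treated entire sections. s72505_f_at had its highest entire array at 0.29% CA in replicate 6, at an intensity of 1363 against 1032 for the next array, a gap that took 0.557 of the range of the 8 arrays on the normalized log2 scale (limit 0.526). k01932_f_at had its highest entire control in replicate 7, at 1797 against 1634 for the next, a gap of 0.552 of the range of 8 arrays. The GAPDH ratio of that control array was 6.25, and without it the log2 fold of 0.29% CA over controls was -0.41 (limma adjusted p = 0.0634). x62660mrna_g_at had its lowest entire array at 0.54% CA in replicate 6, at 111 against 239 for the next, a gap of 0.698 of the range of 6 arrays (limit 0.625). The GAPDH ratio of this last array was 2.21.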

How the results depend on the processing

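Over 907 refits of a member's fold (78 member and comparison pairs), 853 kept direction and side of the threshold, 19 lost the call, 6 gained it, and 29 changed sign, 0 of them with a call in either fit. Counts of members called out of 6 moved as follows, and the cause was not tested. In entire sections at 0.29% CA (2 called) there was 1 on the deposited scale, with a floor of 20, with all 15 groups fitted or with a 2-fold minimum. At 0.54% (1 called) there were 2 with array weights, s72506_s_at added (limma adjusted p = 0.0101 against controls that all lie at the floor, so this call is set by the floor and the filter), and 2 with the GAPDH covariate, k01932_f_at added (-0.41, limma adjusted p = 0.0244). In stained sections at 0.54% (1 called) there were 0 when probe sets had to exceed the median level, which left s82820mrna_s_at untested, 0 with the GAPDH covariate and 0 without the arrays in doubt. Stained against entire controls (2 called) gave 1 with a 2-fold minimum and 0 with the GAPDH covariate. The difference in CA effect at 0.54% (0 called) gave 1 with a floor of 20, s82820mrna_s_at (-1.32, limma adjusted p = 0.000279). That floor sets all entire and stained controls to the same value, so this fit compares only the treated arrays of the preparations. CA in microdissected sections (0 called) gave 1 when only the microdissected and entire arrays were fitted. Against entire sections, microdissected sections (2 called) gave 1 with the GAPDH covariate and 1 with quantile normalization before the floor, an alternative chosen after seeing the data. Dehydrated sections (3 called) gave 0 with the GAPDH covariate. LCM-reference-time sections (2 called) gave 4 on the deposited scale, and 1 each with no filter, with the replicate block, with a mean trend and robust variances, with the GAPDH covariate and without the arrays in doubt.

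Leaving out 1 array at a time gave 1 to 2 called members in entire sections at 0.29%, 0 to 1 in stained sections at 0.54%, 0 to 1 for CA in microdissected sections, 1 to 2 for microdissected and 1 to 2 for LCM-reference-time against entire sections. The labels do not say what a replicate number stands for, though some same-numbered arrays varied together. The replicate number as a block left the other member counts at 2 for entire 0.29% and 1 for entire 0.54%. Calls over all probe sets moved by over 1.5 times as follows. In entire sections at 0.29% there were 869, against 532 when all 15 groups entered and 355 under a 2-fold minimum. At 0.54% there were 1236, 782 and 559 in the same fits and 1934 with array weights. For 0.54% over 0.29% there were 73, from 31 with a 2-fold minimum to 331 with array weights, and 213 with the replicate block. In stained sections at 0.29% there were 289 and 546 with all 15 groups. At 0.54% there were 496, 964 with all 15 groups and 297 with the GAPDH covariate. For stained 0.54% over 0.29% there were 5, and 0 with the replicate block to 20 with array weights. Stained against entire controls gave 2462, 3798 on the deposited scale, 1445 with a 2-fold minimum and 398 with the GAPDH covariate. The difference in CA effect gave 7 at 0.29% (1 to 17) and 11 at 0.54% (2 to 30). CA in microdissected sections gave 1062, from 312 on the deposited scale to 1834 with only the microdissected and entire arrays. Against entire sections, microdissected sections gave 2497 and 1622 with a 2-fold minimum, and dehydrated sections 1733, from 284 with the GAPDH covariate to 2726 with array weights. On the deposited scale 2179 were higher and 1184 lower in microdissected sections (1340 and 1157 after quantile normalization), and 1816 and 589 in dehydrated sections (1010 and 723). Signs changed, always without a call, in these log2 folds, of which those of s72506_s_at are set by the floor and not read as folds. With array weights they were 0.22 for x62660mrna_g_at in entire 0.54% over 0.29%, -0.034 for x62660mrna_at in stained 0.54% over 0.29% and 0.012 for x62660mrna_g_at in LCM-reference-time sections against entire ones. With the replicate block they were 0.0055 for x62660mrna_g_at in entire 0.54% over 0.29%, 0.13 for it in LCM-reference-time sections, and 0.12 and 0.11 for k01932_f_at in microdissected and dehydrated sections. With a floor of 20, x62660mrna_at had -0.019 in stained sections at 0.29% CA. With the GAPDH covariate, x62660mrna_at had -0.077 and -0.060 in stained sections at 0.29% and 0.54% and x62660mrna_g_at 0.036 at 0.29%. With it, stained against entire controls gave -0.032 for s72505_f_at and 0.095 for s82820mrna_s_at, the difference in CA effect at 0.54% was 0.11 for x62660mrna_g_at, and CA in microdissected sections gave 0.039 for s72505_f_at. Without the arrays in doubt, x62660mrna_g_at had 0.045 in stained sections at 0.29%, 0.018 for the difference in CA effect at 0.54% and 0.028 in LCM-reference-time sections. Without them s72505_f_at had 0.017 in stained sections at 0.54%, x62660mrna_at -0.072 in stained 0.54% over 0.29%, and s72506_s_at 0.0074 for the difference at 0.54%. On the deposited scale k01932_f_at had 0.13 in stained against entire controls and 0.29 in dehydrated sections, s72505_f_at had -0.028 for the difference at 0.54% and 0.10 for CA in microdissected sections, x62660mrna_g_at had -0.012 in microdissected sections, and s72506_s_at had 0.23, 0.080 and 0.080 in microdissected, dehydrated and LCM-reference-time sections. Leaving out 1 array at a time also changed the sign of 15 log2 folds. k01932_f_at ran from -0.052 to 0.11 for the difference in CA effect at 0.29% and from -0.067 to 0.14 at 0.54%, and s72505_f_at from -0.11 to 0.057 and from -0.10 to 0.14 for the same differences. s72505_f_at also ran from -0.11 to 0.099 for CA in microdissected sections, from -0.23 to 0.019 in stained sections at 0.54% and from -0.038 to 0.13 in stained against entire controls. CA in microdissected sections ran from -0.23 to 1.21 for s82820mrna_s_at and from -0.53 to 2.14 for x62660mrna_at, and the x62660mrna_at fold was called without control replicate 1. x62660mrna_at ran from -0.078 to 0.25 in stained sections at 0.29% and from -0.012 to 0.30 in stained 0.54% over 0.29%. x62660mrna_g_at ran from -0.11 to 0.12 in entire 0.54% over 0.29%, from -0.058 to 0.027 in LCM-reference-time sections, from -0.24 to 0.0014 for the difference at 0.54% and from -0.13 to 0.071 in stained sections at 0.29%. Intensity limits the weak sets: 55.5% of all values lie under 20, and s72506_s_at and most s82820mrna_s_at control values are near the floor.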
